A study of Homo sapiens with 2 samples.

Results

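The collagen genes were taken as all genes whose platform symbol is COL, a number, A and a number, read by probe sets that carry 1 gene symbol. The array named 43 such genes among 19775 genes in all, and each was represented by its probe set with the highest mean intensity over both arrays. They divide into 11 fibrillar chains, 6 chains of basement membrane collagen (type IV) and 26 chains of other classes. COL17A1 was not analysed here. The study compared U251 cells, a human glioma cell line, transfected with a control and U251 cells transfected with miR-31, a microRNA. Both cultures were grown in DMEM with serum, and 250 ng of total RNA from each was labelled for 1 Affymetrix HG-U133_Plus_2 array. Each group therefore has 1 array, no replicate spread exists, no p-value was computed, and a difference between these arrays cannot be told apart from a difference between the cultures. The labels do not give the kind of construct, its dose or the time from transfection to harvest.

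Collagens are secreted or membrane-anchored matrix proteins whose chains wind around each other into a helix. Fibrillar collagens form the tensile fibres of connective tissue, type IV collagen forms the sheet of basement membranes, and the remaining classes decorate fibrils, link them to cells or form networks of their own. Brain tissue holds little fibrillar collagen outside its vessels and meninges, whereas glioma cells in culture can express several collagen chains.

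The transfected agent is shown here because it is the only difference between the groups that the labels name. RefSeq (GRCh38.p14) places the miR-31 hairpin's 5p arm on the minus strand at chr9:21512158-21512178. The capitals mark its seed, bases 2 to 8, which pairs with target transcripts. The labels do not say which arm was over-expressed, the level of the mature miRNA was not analysed here, and matches to this seed in collagen transcripts were not searched.
hsa-miR-31-5p: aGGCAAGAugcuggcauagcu

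Collagen genes differed between the arrays in both directions, with no common shift. A gene was compared if its mean intensity over both arrays reached 64.5, the median of all probe sets, and this held for 27 of the 43 collagen genes. The ratio of a gene is log2(intensity + 16) in the miR-31 array minus the same in the control array, a scale that understates differences of dim genes. Of the 27 genes, 12 had a ratio above 0 and 15 below 0, where 46.7% of all genes lay below 0, and their median was -0.19, beside a median of 0.03 over all 11799 genes compared. COL11A1, COL21A1 and COL4A4 had ratios of at least 1 (2-fold) on this scale, which is 3 of 27, beside 4.12% of all genes compared. With a pseudocount of 1 in place of 16 COL4A3 joined them, which made 4, and with 64 COL4A4 dropped out. COL4A1, COL6A3, COL13A1, COL22A1 and COL5A3 were at least 2-fold lower, which is 5 of 27, beside 1.73% of all genes. Past 2-fold in either direction were 8 of 27 collagen genes and 5.85% of all genes. Of these 8, COL5A3, COL22A1 and COL4A4 reached the minimum only through the array where they were high. Among the 17 collagen genes with a mean intensity of at least 200, 2 were higher and 3 lower past 2-fold, beside 3.11% and 1.37% of all genes at that level. Dim genes vary more: 12 of the 27 collagen genes lay among the dimmest 2950 genes, where 10.8% of genes passed 2-fold and 3 of the 12 did. Of the brightest 2950 genes 2.64% passed 2-fold, and 2 of the 8 collagen genes there did. As a gauge of measurement noise, a probe set's log2 ratio had an SD of 0.345, taken from the disagreement within 3151 genes with exactly 2 probe sets above the minimum. This gauge does not cover differences between cultures.

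**Figure D1:**
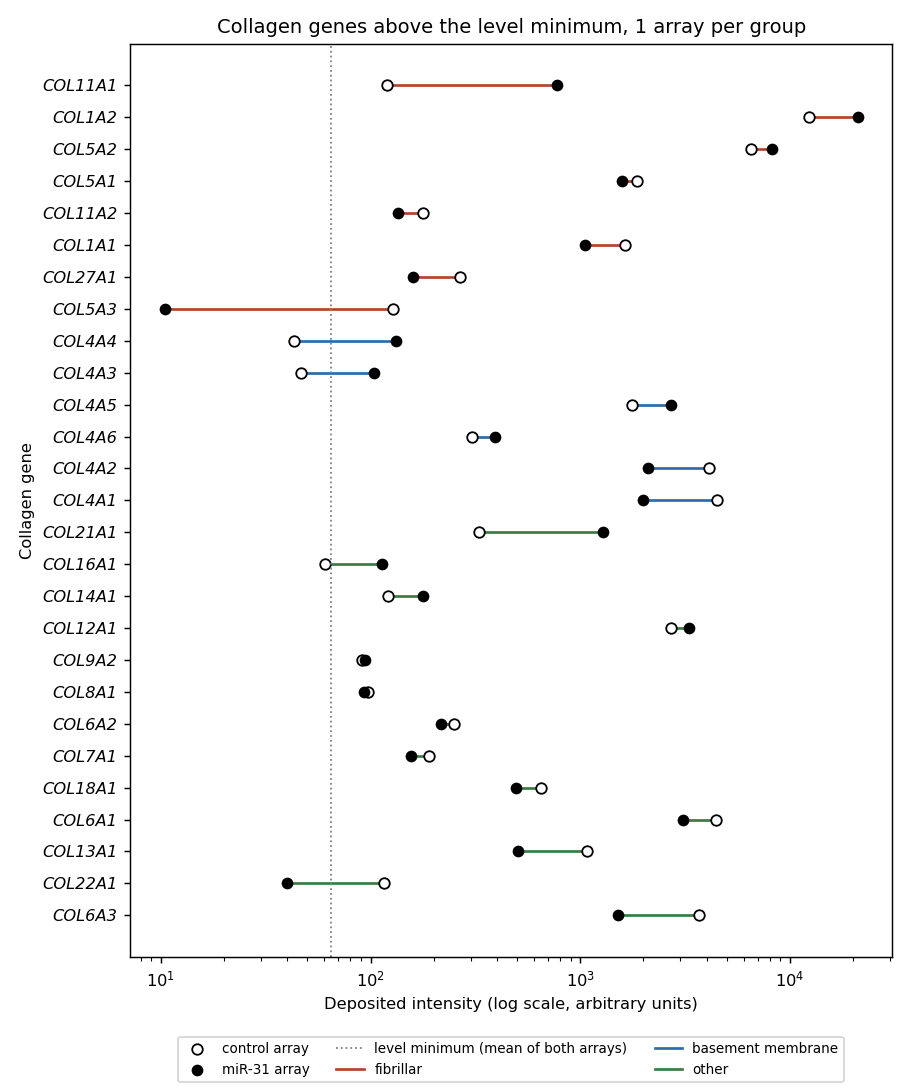
Deposited intensity on a log axis for the 27 collagen genes above the level minimum, with the control array as open circles, the miR-31 array as filled circles and the line coloured by class. COL11A1 stands at 120.1 and 771, COL6A3 at 3691 and 1515, and COL5A3 crosses from 127.5 to 10.4, below the minimum of 64.5 drawn as a dotted line.

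**Figure D2:**
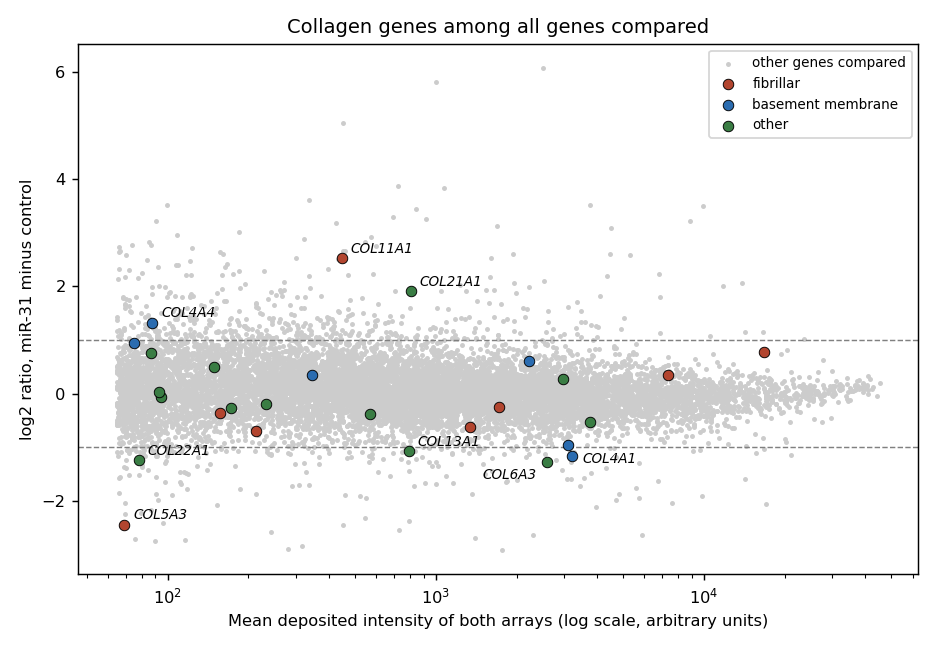
Log2 ratio (miR-31 minus control) against mean intensity for all 11799 genes compared (grey) and the 27 collagen genes (coloured by class), with dashed lines at 2-fold. The 3 higher and 5 lower collagen genes past 2-fold are named and lie at dim, middle and bright levels.

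Among the fibrillar collagens, COL1A1 and COL1A2, COL5A1 and COL5A2, and COL11A1 and COL11A2 lay on opposite sides of 0 on the deposited scale. COL5A3, a further type V chain, was also below 0. It was under the minimum in the miR-31 array, so the minimum admitted only a ratio below 0 and its sign carries no weight. The signs of the pairs are a description with no test, and 46.7% of all genes compared lay below 0. The 8 compared members had a median ratio of -0.30, with 3 above 0 and 5 below 0. Of the 8, 1 was at least 2-fold higher and 1, COL5A3, at least 2-fold lower, beside 4.12% and 1.73% of all genes. COL1A2, the second chain of type I collagen, the main collagen of bone and skin, had an intensity of 12349 in the control array and 21028 in the miR-31 array, a ratio of 0.77. Its other probe sets had 0.52 and 1.02, so all 3 were higher in the miR-31 array. COL1A1, the chain that joins it in the type I heterotrimer, had 1630 and 1052, a ratio of -0.62. A further COL1A1 probe set had -0.74 and another 0.11, so the COL1A1 probe sets above the minimum lay on both sides of 0. The ratio of COL1A2 exceeded that of COL1A1 by 1.39, a difference that centring the arrays on any constant leaves as it is.

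Type V collagen, which nucleates and thins type I fibrils, showed a smaller gap of the same kind. COL5A2 had 6511 and 8224 (ratio 0.34, and 0.40 on its other probe set). COL5A1 had 1867 and 1582 (ratio -0.24, with 3 probe sets between -0.66 and -0.21). Both genes lay well within 2-fold, and their ratios differed by 0.57. With poly-A controls as the zero point, COL5A2 was at -0.21 and thus on the same side of 0 as COL5A1. COL5A3, a further type V chain, had 127.5 in the control array and 10.4 in the miR-31 array, a ratio of -2.44, the lowest of the collagen genes compared. That value rests on 1 probe set, named _s_at, it is under the minimum in the miR-31 array, and it ran from -3.49 with a pseudocount of 1 to -1.36 with a pseudocount of 64. A second COL5A3 probe set, under the minimum on both arrays, went the other way, with 17.3 and 37.6 and a ratio of 0.68. When the level was taken as the mean of log2 values, COL5A3 no longer reached the minimum.

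Type XI collagen, a minor fibrillar collagen best known from cartilage, held the highest collagen ratio. COL11A1 had 120.1 in the control array and 771 in the miR-31 array, a ratio of 2.53, and a second probe set had 141.7 and 594, a ratio of 1.95. Both probe sets above the minimum were therefore higher in the miR-31 array by more than 2-fold, and COL11A1 ranked 39th from the top among the 11799 genes. Over all settings tried, its ratio lay between 1.98 and 2.67. COL11A2, its partner chain, had 177.7 and 134.9, a ratio of -0.36, with -0.93 on its other probe set. COL27A1, a fibrillar chain of developing cartilage, had 267.7 and 159.7, a ratio of -0.69.

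The chains of type IV collagen had ratios on both sides of 0. They are encoded by gene pairs that lie head to head, with start sites close together and transcription running in opposite directions. In the RefSeq gene table COL4A1 and COL4A2 are neighbours on chromosome 13, COL4A3 and COL4A4 on chromosome 2, and COL4A5 and COL4A6 on chromosome X. All 6 genes were compared, with a median ratio of 0.48, 4 above 0 and 2 below 0. In each of the 3 pairs both genes had the same sign, a description of 3 pairs with no test, and with COL4A6 changing sign under 1 scaling. COL4A3 and COL4A4 lay under 64.5 in the control array and reached the minimum only through the miR-31 array. Given those control values, the minimum admitted only ratios above 0, so the like sign of this pair carries no weight. With the level of 200, which leaves this pair out, the type IV median was -0.3.

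COL4A1 and COL4A2, whose chains form the common basement membrane network of blood vessels, were both lower in the miR-31 array. COL4A1 had 4461 in the control array and 1981 in the miR-31 array, a ratio of -1.16. COL4A2 had 4097 and 2107, a ratio of -0.95, just within 2-fold. Each gene has a dimmer second probe set with a smaller ratio: that of COL4A1 had 389 and 358 (-0.11) and that of COL4A2 had 393 and 292 (-0.41). With the mean of its probe sets COL4A1 had a ratio of -0.64 and no longer reached 2-fold.

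COL4A3 and COL4A4, whose chains belong to the basement membranes of kidney, lung and inner ear, were both dim and higher in the miR-31 array. COL4A3 had 46.4 and 104.1, a ratio of 0.94, and COL4A4 had 43.3 and 131.8, a ratio of 1.32. In the control array both lay under the minimum of 64.5, so the size of these ratios depends on the pseudocount: with a pseudocount of 64 the ratio of COL4A4 was 0.87. Of the 7 probe sets of COL4A3, 1 reached the minimum, and of the 3 of COL4A4 also 1.

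COL4A5 and COL4A6, the X-linked pair, were higher by less than 2-fold. COL4A5 had 1765 and 2702, a ratio of 0.61. COL4A6 had 303 and 389.9, a ratio of 0.35, with 0.82 on a second probe set. Centring on the poly-A spike-in controls, which shifts every gene by -0.55, put COL4A6 at -0.21, while COL4A5 was at 0.06. The COL4A5 value comes from an _s_at probe set, a kind that can read several transcripts, and without such probe sets the gene was not compared.

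The promoter windows of these pairs are shown because the genes of each pair lie head to head. The ratios were not the reason, since for COL4A3 and COL4A4 the like sign was fixed by the level minimum. RefSeq promoter windows (GRCh38.p14) run from 250 bases before to 50 after the start site. The start sites of COL4A1 and COL4A2 lie 127 bases apart, and their windows share 226 bases. For COL4A3 and COL4A4 the distance is 419 bases and the shared part 82, and for COL4A5 and COL4A6 they are 380 and 121 bases. The COL4A1 window lies on the minus strand at chr13:110307108-110307407 and also covers the start site of COL4A2. The COL4A3 window is on the plus strand at chr2:227164374-227164673 and that of COL4A4 on the minus strand at chr2:227164156-227164455. The COL4A5 window is on the plus strand at chrX:108439588-108439887 and the COL4A6 window facing it on the minus strand at chrX:108439409-108439708. Sequences are printed 5' to 3' on the gene's own strand, and the capitals mark matches, on either strand, to the CCAAT box (CCAAT) and the GC box (GGGCGG), short elements common in promoters.
COL4A1: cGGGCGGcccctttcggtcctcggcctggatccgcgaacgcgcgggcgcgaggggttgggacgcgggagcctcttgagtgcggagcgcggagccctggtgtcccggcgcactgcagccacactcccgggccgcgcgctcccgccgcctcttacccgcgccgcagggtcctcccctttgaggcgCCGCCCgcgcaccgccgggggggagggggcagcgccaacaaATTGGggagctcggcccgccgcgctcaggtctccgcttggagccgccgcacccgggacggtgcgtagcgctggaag
COL4A3: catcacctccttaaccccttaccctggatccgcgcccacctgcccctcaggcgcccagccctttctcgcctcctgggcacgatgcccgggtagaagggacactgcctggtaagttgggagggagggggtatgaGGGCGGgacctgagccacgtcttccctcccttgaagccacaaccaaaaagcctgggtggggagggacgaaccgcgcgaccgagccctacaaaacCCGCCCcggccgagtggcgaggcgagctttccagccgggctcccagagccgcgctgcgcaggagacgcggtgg
COL4A4: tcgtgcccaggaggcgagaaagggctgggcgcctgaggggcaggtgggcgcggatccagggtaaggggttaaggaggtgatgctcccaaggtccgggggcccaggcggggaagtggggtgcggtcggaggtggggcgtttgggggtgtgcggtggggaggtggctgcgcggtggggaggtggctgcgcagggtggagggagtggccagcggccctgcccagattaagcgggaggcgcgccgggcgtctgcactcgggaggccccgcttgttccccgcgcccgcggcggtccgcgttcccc
COL4A5: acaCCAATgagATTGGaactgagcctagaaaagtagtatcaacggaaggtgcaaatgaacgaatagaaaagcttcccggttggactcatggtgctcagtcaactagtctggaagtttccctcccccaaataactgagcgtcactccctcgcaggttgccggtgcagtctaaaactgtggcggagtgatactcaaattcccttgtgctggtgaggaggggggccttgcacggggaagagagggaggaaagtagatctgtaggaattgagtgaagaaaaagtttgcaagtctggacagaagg
COL4A6: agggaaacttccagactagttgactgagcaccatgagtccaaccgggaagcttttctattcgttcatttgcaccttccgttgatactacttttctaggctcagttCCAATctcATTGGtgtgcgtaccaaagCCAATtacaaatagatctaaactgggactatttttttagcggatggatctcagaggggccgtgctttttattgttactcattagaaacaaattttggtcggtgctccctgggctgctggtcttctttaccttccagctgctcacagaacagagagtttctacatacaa

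The window of the COL4A1 and COL4A2 pair held both elements and was rich in G and C, with 76.7% of bases in the COL4A1 window. COL4A3 had 2 GC box matches and COL4A4 none of the motifs searched. The COL4A5 window held 2 CCAAT matches and the COL4A6 window 3, and the GC content of these windows was 49.3% and 43.7%. The 2 COL4A5 matches lie in the shared bases and are the same sites as 2 of the 3 in COL4A6, read from the other strand. A further COL4A6 window, not printed, had 0 CCAAT matches and 1 GC box match. Over the 31 collagen genes with a window (the first listed for each), the CCAAT box was present in 29% and the GC box in 58.1%, against 34.6% and 45% of all 35116 windows. The sets are unlike, since all windows can include several per gene. The median GC content was 66.7% in the collagen windows and 58.7% in all windows, which bears on matches to a motif of G and C. Searches were also made for the TATA box (TATAAA), found in 12.9% of the collagen windows and 11.5% of all windows, and the AP-1 site (TGANTCA), found in 0 of the 31 collagen windows and 7.71% of all windows. These are matches of letters in a short window and not binding sites.

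**Figure D3:**
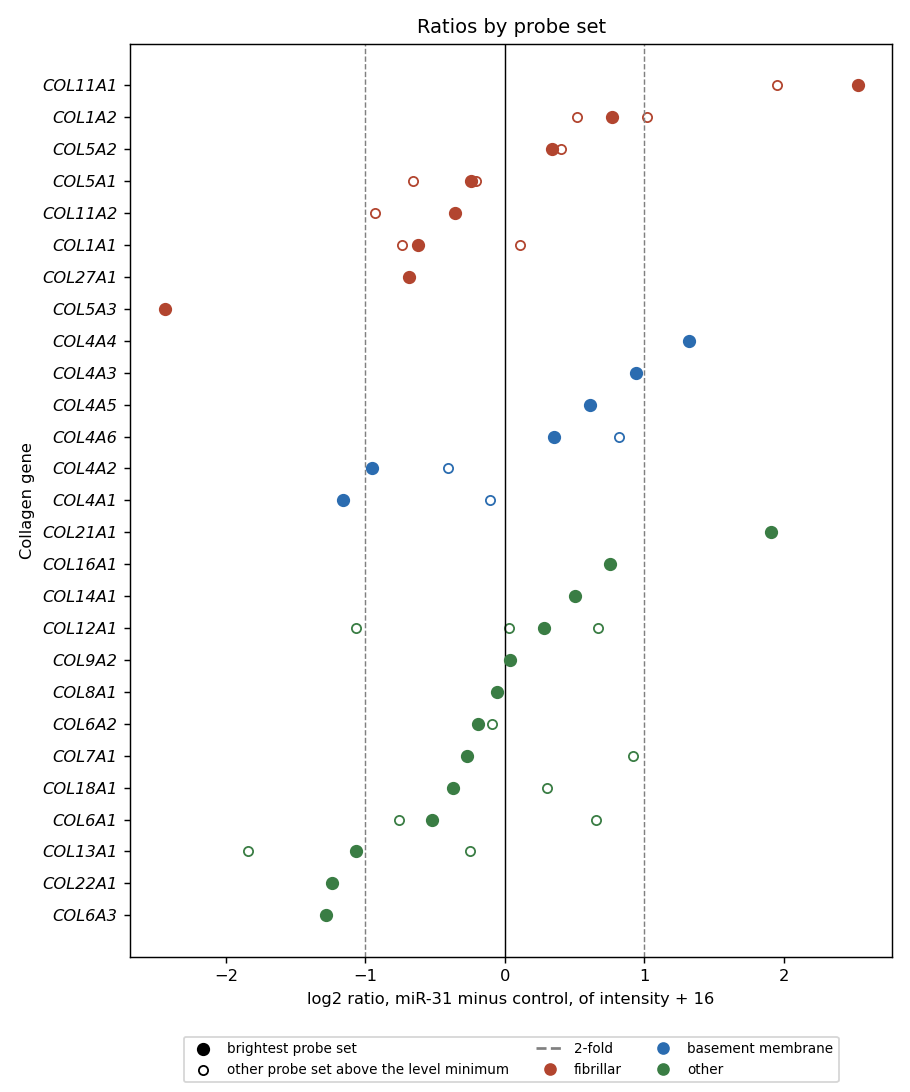
Log2 ratio (miR-31 minus control) of each probe set above the level minimum for the 27 collagen genes, with the brightest probe set filled, further ones open, and dashed lines at 2-fold. Both COL11A1 probe sets lie beyond 2-fold, at 1.95 and 2.53, while the second probe sets of COL4A1 and COL4A2 lie at -0.11 and -0.41.

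The chains of type VI collagen build the beaded filaments around cells. The brightest probe set of all 3 compared members was lower, with a median ratio of -0.52, where 46.7% of all genes compared lay below 0. COL6A3, the long chain of the heterotrimer, had 3691 in the control array and 1515 in the miR-31 array, a ratio of -1.28, from its only probe set. Its ratio lay between -1.83 and -1.24 over all settings. COL6A1 had 4422 and 3074, a ratio of -0.52, but its 3 probe sets above the minimum ran from -0.76 to 0.65, and without probe sets named _s_at or _x_at, which can read several transcripts, its ratio was 0.65. COL6A2, the neighbour of COL6A1 on chromosome 21, had 249 and 216, a ratio of -0.19, with -0.09 on its other probe set. Both COL6A2 ratios were smaller in size than the probe set SD of 0.345. The further type VI chains COL6A5 and COL6A6 did not reach the minimum.

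The promoter windows of the highest collagen gene and of the lowest one with a bright probe set are printed with the same marking. The COL11A1 window is on the minus strand at chr1:103108473-103108772, has 3 GC box matches and 1 CCAAT match, and the COL6A3 window, on the minus strand at chr2:237414115-237414414, has 0 matches to any motif searched.
COL11A1: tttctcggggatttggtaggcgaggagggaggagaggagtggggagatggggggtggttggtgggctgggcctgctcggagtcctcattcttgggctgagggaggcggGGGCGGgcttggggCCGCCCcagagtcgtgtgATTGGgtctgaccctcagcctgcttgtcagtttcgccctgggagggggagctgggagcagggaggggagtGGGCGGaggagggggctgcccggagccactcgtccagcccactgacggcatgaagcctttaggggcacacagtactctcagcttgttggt
COL6A3: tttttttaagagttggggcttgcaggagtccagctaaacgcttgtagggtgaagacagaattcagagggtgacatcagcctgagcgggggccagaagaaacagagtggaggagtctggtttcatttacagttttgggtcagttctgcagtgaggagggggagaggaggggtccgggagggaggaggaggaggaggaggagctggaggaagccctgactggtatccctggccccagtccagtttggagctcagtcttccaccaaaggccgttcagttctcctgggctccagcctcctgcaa

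Fibril-associated collagens, which coat fibrils and carry interruptions in the helix, had ratios above 0 in 5 of 6 compared members, with a median of 0.39. Of all genes compared 46.7% lay below 0. In these 6 genes 1 passed 2-fold each way, beside 4.12% of all genes higher and 1.73% lower. COL21A1 had 330 in the control array and 1280 in the miR-31 array, a ratio of 1.91, the second highest among the collagen genes compared. Its ratio lay between 1.35 and 1.95 in the settings that gave a value. Its only probe set is named _s_at, so without _s_at and _x_at probe sets the gene was not compared and its call is lost. COL16A1 had 60.8 and 113.1 (ratio 0.75), under the minimum in the control array. The minimum therefore admitted only a ratio above 0 for COL16A1, and its place among the 5 carries no weight. COL14A1, which regulates fibril diameter, had 120.5 and 177.3 (ratio 0.50). COL12A1, a bridge between fibrils and other matrix, had 2698 and 3281 (ratio 0.28), but its 4 probe sets above the minimum ran from -1.07 to 0.67, and their mean was -0.02. COL9A2, a cartilage chain, had 91.3 and 94.0 (ratio 0.04). On the other side COL22A1, a collagen of tissue junctions, had 116.4 and 39.98, a ratio of -1.24, under the minimum in the miR-31 array. With a pseudocount of 64 its ratio was -0.79. Given its low value in the miR-31 array, the minimum admitted COL22A1 only with a ratio below 0. The count of 5 above 0 depends on the scale, since COL12A1, COL14A1 and COL9A2 were below 0 when centred on the poly-A controls, and COL9A2 also with quantile normalization, loess and centring on the hybridisation controls.

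Of the remaining classes, the transmembrane chain COL13A1 passed 2-fold. It had 1079 in the control array and 506 in the miR-31 array, a ratio of -1.07, and its 3 probe sets were all lower, between -1.84 and -0.25. All 3 are named _s_at or _x_at, so the gene was not compared without such probe sets. COL18A1, a multiplexin of basement membrane zones and the source of endostatin, had 646 and 496 (ratio -0.37), with 0.30 on its second probe set. COL7A1, which forms the anchoring fibrils of skin, had 190.2 and 155.4 (ratio -0.27), with 0.92 on its second, so these genes have no single direction here. COL8A1, a network collagen of vessel walls, had 97.0 and 92.6 (ratio -0.06).

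Across the 15 compared collagen genes with several probe sets above the minimum, all probe sets had one sign in 10 genes and both signs in 5. The 5 were COL1A1, COL6A1, COL7A1, COL12A1 and COL18A1, and none of them passed 2-fold on its brightest probe set. The other 12 compared genes rest on 1 probe set each.

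The 16 collagen genes that did not reach the minimum had mean intensities between 5.57 and 51.2 and ratios between -2.34 and 1.74. No background level was estimated here, so signal at such levels was not separated from background. Among all genes below the minimum 19.7% passed 2-fold. Among the 16, the higher ones past 2-fold numbered 4 and the lower ones 3. COL9A3 had 14.9 and 87.5 (ratio 1.74), COL19A1 3.76 and 27.0 (1.12), COL25A1 12.8 and 43.9 (1.05) and COL24A1 2.26 and 21.1 (1.02). On the lower side COL15A1 had 72.6 and 1.49 (-2.34), COL23A1 57.1 and 6.56 (-1.70) and COL3A1 46.9 and 3.74 (-1.67). COL3A1, the fibrillar chain of type III collagen and the neighbour of COL5A2 on chromosome 2, had 5 probe sets, all under the minimum, with ratios from -1.79 to 1.46. COL2A1, COL10A1, COL20A1, COL26A1, COL28A1, COL6A5, COL6A6, COL8A2 and COL9A1 were also under the minimum and had ratios within 2-fold on the log2(intensity + 16) scale. Some differed by more in the deposited intensities themselves, COL10A1 with 14.7 and 44.6 and COL20A1 with 29.8 and 7.52.

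Genes that make, process or bind collagen had ratios between -0.70 and 1.21 where compared, with medians near 0. Of 20 compared genes for modification, folding and export of chains, 14 had a ratio above 0 and 6 below 0, with a median of 0.12, and 1 passed 2-fold, beside 5.85% of all genes. That gene, MIA3, which helps load procollagen into transport vesicles, had 300 in the control array and 654 in the miR-31 array (ratio 1.09), with 3 probe sets between 0.16 and 1.09. Its call was lost with quantile normalization (0.98), loess (0.98), a pseudocount of 64 (0.98), the mean of probe sets (0.68), no _s_at and _x_at probe sets (0.79) and centring on the hybridisation (0.90) or poly-A controls (0.53). FKBP10, a collagen prolyl isomerase, had 0.68, and P3H2, a prolyl 3-hydroxylase active on type IV collagen, had 567 and 370 (ratio -0.60). SERPINH1, the collagen chaperone HSP47, had 1307 and 959 (ratio -0.44). The prolyl and lysyl hydroxylase genes P4HA1 (0.11), P4HB (0.24) and PLOD2 (0.02) had small ratios.

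Among 10 compared genes of procollagen cleavage and crosslinking the median was 0.02, and 2 passed 2-fold, beside 5.85% of all genes. Both are lysyl oxidases, the enzymes that crosslink collagen. LOXL3 had 117.9 and 294 (ratio 1.21), and LOX had 191 and 432 (ratio 1.12, with 0.60 on its second probe set). Both calls depend on the setting. LOX was under 2-fold with quantile normalization (0.98), loess (0.96), a pseudocount of 64 (0.96), the mean of probe sets (0.86) and centring on the poly-A (0.57) or hybridisation controls (0.93), and was not compared without _s_at and _x_at probe sets. LOXL3 was under it with a pseudocount of 64 (0.98) and on the poly-A controls (0.66). LOXL1 (0.89) and LOXL4 (0.83) were also above 0, whereas LOXL2 had 6645 and 5187 (ratio -0.36). BMP1, which removes the C-terminal propeptide of fibrillar procollagens, had 2217 and 1363 (ratio -0.70), with 5 probe sets between -1.38 and 0.15. Among 7 compared collagen receptors none passed 2-fold, beside 5.85% of all genes, and the median was 0.19. ITGA10 had a ratio of -0.51, the discoidin receptor DDR2 0.50 and ITGA1 -0.45. The medians of all 3 lists were below 0 when centred on the poly-A controls, and that of cleavage and crosslinking also with quantile normalization, loess and both other centrings. That of modification and folding was also below 0 (-0.07) on the hybridisation controls, while LOX, LOXL1, LOXL3 and LOXL4 stayed above 0 under each scaling tried.

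**Figure D4:**
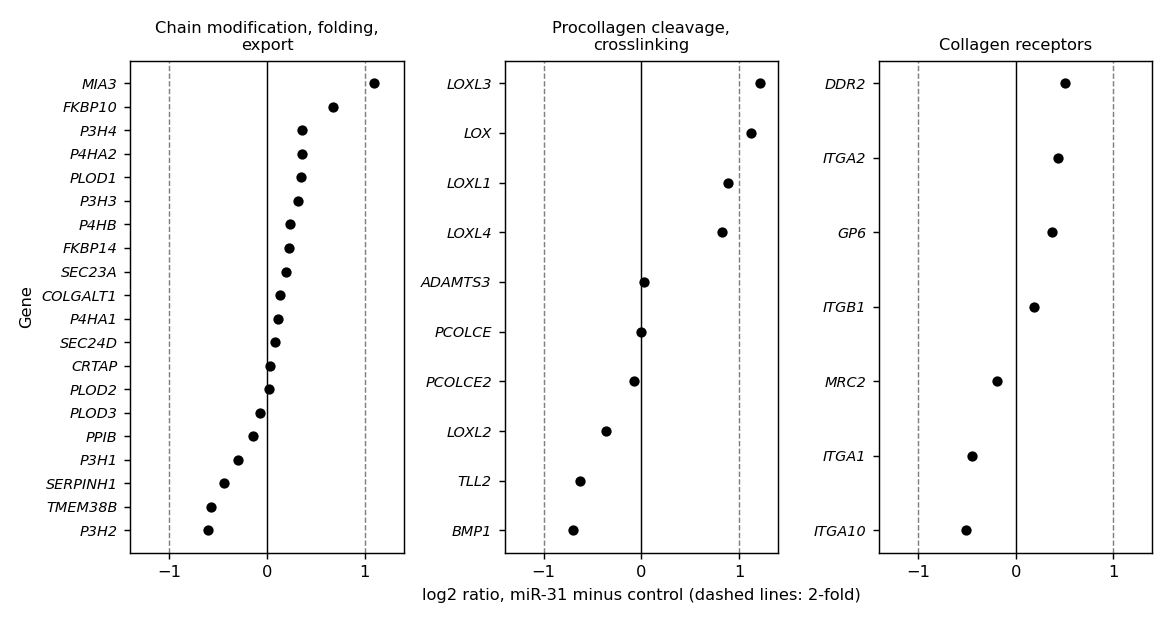
Log2 ratio (miR-31 minus control) of genes above the level minimum that modify, fold and export collagen chains (left, 20 genes), cleave and crosslink procollagen (middle, 10 genes) or act as collagen receptors (right, 7 genes), with dashed lines at 2-fold. MIA3, LOX and LOXL3 lie beyond 2-fold at 1.09, 1.12 and 1.21, and the other genes lie within it.

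The label of the cells was checked against markers. Of 8 glioma and astroglial markers 6 reached the minimum, with VIM at 29991 and 34112, SOX2 at 13333 and 17486, GFAP at 2007 and 3624, NES at 11039 and 5877, FABP7 at 24657 and 17202 and CD44 at 23866 and 20146, while S100B and AQP4 did not. Other cell types that make collagen were gauged in the same way. Of 7 fibroblast and pericyte markers 3 reached the minimum (PDGFRA, THY1 and RGS5), and DCN (44.8 and 68.2), LUM (51.6 and 14.1), FAP (16.6 and 69.9) and PDGFRB (117.7 and 7.57) did not. Of 5 endothelial markers 2 did, PECAM1 (121.3 and 123.8) and KDR (539 and 281), and CDH5 and VWF were under it. Of 5 chondrocyte markers 1 did, ACAN (110.5 and 117.0), and the other 4 were under it. The summed intensities in the control and miR-31 arrays were 104933 and 98530 for the glioma list, 11523 and 14518 for fibroblasts and pericytes, 724 and 491 for endothelium and 137.9 and 238 for chondrocytes. For fibroblasts and pericytes the difference comes mainly from PDGFRA (5601 and 9052), whose other probe set above the minimum had a ratio of -0.02, while THY1 had 5591 and 5193. For endothelium it comes mainly from KDR, and for chondrocytes mostly from markers under the minimum. The part of any other cell type in the collagen values was not tested.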

How the data were processed

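Total RNA of 2 cultures was hybridised on 2 arrays. The authors deposited linear intensity values for 54675 probe sets, made by software not given in the sources used here. Deposited intensities had a trimmed mean of 500.1 on both arrays after leaving out 2 percent at each end, so they are scaled values. The 62 control probe sets were left out, and 41091 probe sets carried 1 symbol in the platform annotation. All 43 collagen genes matched the RefSeq gene table by Entrez identifier.

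The ratio is log2(intensity + 16), miR-31 minus control. A gene was compared if the mean intensity of its brightest probe set reached 64.5, and called past 2-fold. With 1 array per group no test was run, and the number of arrays limits the precision. Gene lists, classes and the naming rule (every collagen gene, and of each other list those past 2-fold or else the 3 largest) were chosen with earlier results of these data known; further genes named from those lists were chosen after their values were seen. The calculation was tested on simulated data. Tables were handled with pandas 2.3.3 and numpy 2.4.6 in Python 3.11.15, loess came from statsmodels 0.14.6, the trimmed mean from scipy 1.17.1 and plots from matplotlib 3.10.9.

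Alternatives were quantile normalization, median centring, centring on 18 hybridisation or 24 poly-A control probe sets, loess (span 0.3), no level filter, a level of 200, pseudocounts of 1 and 64, the mean of probe sets, leaving out _s_at and _x_at probe sets, a threshold of 1.5-fold and, added after seeing the data, the level as a mean of log2 values.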

Additional observations from a re-analysis of the deposited data

How the results depend on the processing

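No paired analysis was possible because there is 1 array per group, so leaving 1 out gives no value. Over the alternatives that can move a ratio, the 27 compared collagen genes gave 236 values, of which 199 moved by less than 0.345 and 37 by more, 27 of the latter through the constant shift onto the poly-A controls. Part of the 199 was fixed in advance. Centring on the median or the hybridisation controls shifts every gene by -0.03 or -0.19, which is under 0.345. The 12 genes with 1 probe set above the minimum cannot move under the mean of probe sets. The count is therefore no measure of robustness. No gene past 2-fold changed sign in the settings that gave it a value. Centring on the poly-A controls shifted every gene by -0.55: 9 collagen genes were then at least 2-fold lower, beside 11% of all genes and a median of -0.52 over all genes, and the collagen medians were -0.74 for all collagens, -0.85 for fibrillar, -0.07 for basement membrane and -0.74 for other collagens. The share of higher genes among all past 2-fold, 70.4% on the deposited scale, was 57.2% with quantile normalization, 59.6% with loess, 44% on the hybridisation controls and 10.5% on the poly-A controls. Without the level filter 7 collagens were higher and 8 lower, beside 6.24% and 5.2% of all genes, and at 1.5-fold also 7 and 8, beside 12.1% and 6.87%, since each of these lets more genes through. The level of 200 left 17 collagen genes, 3 of them at least 2-fold lower, beside 1.37% of all genes. It put the fibrillar median at 0.05 and the basement membrane median at -0.30, since COL5A3, COL11A2, COL4A3 and COL4A4 drop out. Without _s_at and _x_at probe sets 20 collagen genes were left. Of these 3 were higher and 3 lower, beside 4.23% and 1.77% of all genes. COL1A2 (1.02) was then among the higher ones, and COL13A1, COL5A3 and COL21A1 were among those not compared. Low signal limits COL5A3, COL16A1, COL22A1, COL4A3 and COL4A4, which lay under 64.5 on 1 array.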
